A study of Mus musculus with 10 samples.

Results

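The genes Ms4a7, Ms4a6b, Ms4a6c, Ms4a6d, Ms4a4a, Ms4a4b and Ms4a4c belong to the membrane-spanning 4A (MS4A) family and were taken by symbol from a table of read counts. They are 7 of the 53546 genes in that table, and all 7 were among the 14023 genes with enough counts to be tested. The cells were macrophages of the borders of the central nervous system, sorted from the brain of individual untreated mice and profiled by bulk RNA sequencing, with 1 library a mouse. All mice were on the C57BL/6N background and aged 6 to 8 weeks. Homozygous mice (Mrc1-CreERT2/Mrc1-CreERT2, 4 libraries, replicates 1 to 4) carried the allele on both chromosomes, heterozygous mice (3 libraries, replicates 1, 2 and 4) carried it on a single chromosome, and wild-type mice (3 libraries, replicates 1 to 3) carried none. By its name the allele places CreERT2, a drug-inducible recombinase, at Mrc1, which encodes the mannose receptor. Without any inducing treatment, the comparison of genotypes asks what the allele itself does to the transcripts of these cells.

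MS4A proteins cross the membrane 4 times and are found mainly in blood cells, where some members act beside immune receptors. Ms4a7 is widely used to tell border macrophages and macrophages derived from bone marrow from microglia, which express little of it. Ms4a4c is associated with monocytes and activated myeloid cells, and Ms4a4b is best known from T cells. Ms4a6b, Ms4a6c, Ms4a6d and Ms4a4a are expressed by many macrophages.

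The family sits in a single cluster on chromosome 19, and the start of a gene is where Ms4a7 and Ms4a4c can be set side by side. The 250 bases before the transcription start are shown for 5 members, from RefSeq on GRCm38.p6, 5′ to 3′ on the strand of the gene. They are shown because Ms4a7 and Ms4a4c are the pair compared here, because Ms4a4b is the closest relative of Ms4a4c, and because Ms4a6c and Ms4a6b share the longest run of letters. Capitals mark GGAAGT or its reverse complement ACTTCC, the core letters bound by ETS factors such as PU.1, a regulator of macrophage genes.
Ms4a7 (chr19:11336147-11336396, minus strand): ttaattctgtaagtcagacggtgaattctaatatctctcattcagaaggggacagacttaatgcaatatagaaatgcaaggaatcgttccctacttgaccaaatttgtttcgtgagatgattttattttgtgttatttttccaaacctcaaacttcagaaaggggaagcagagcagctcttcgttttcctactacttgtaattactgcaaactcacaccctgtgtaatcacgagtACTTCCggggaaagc
Ms4a4c (chr19:11407411-11407660, plus strand): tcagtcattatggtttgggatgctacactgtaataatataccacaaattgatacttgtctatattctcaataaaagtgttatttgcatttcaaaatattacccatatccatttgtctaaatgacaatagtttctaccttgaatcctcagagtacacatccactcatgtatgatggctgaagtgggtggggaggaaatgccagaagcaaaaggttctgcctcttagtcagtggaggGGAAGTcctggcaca
Ms4a4b (chr19:11443308-11443557, plus strand): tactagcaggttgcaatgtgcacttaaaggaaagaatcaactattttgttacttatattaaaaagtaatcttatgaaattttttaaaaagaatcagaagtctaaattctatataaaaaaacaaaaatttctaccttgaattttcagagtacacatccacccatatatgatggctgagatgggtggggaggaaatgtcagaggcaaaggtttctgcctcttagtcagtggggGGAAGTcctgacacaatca
Ms4a6c (chr19:11469118-11469367, plus strand): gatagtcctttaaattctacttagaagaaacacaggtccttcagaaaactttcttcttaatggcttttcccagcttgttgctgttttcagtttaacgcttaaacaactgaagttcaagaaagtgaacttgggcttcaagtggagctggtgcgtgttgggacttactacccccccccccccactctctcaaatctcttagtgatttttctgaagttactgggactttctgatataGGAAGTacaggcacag
Ms4a6b (chr19:11518309-11518558, plus strand): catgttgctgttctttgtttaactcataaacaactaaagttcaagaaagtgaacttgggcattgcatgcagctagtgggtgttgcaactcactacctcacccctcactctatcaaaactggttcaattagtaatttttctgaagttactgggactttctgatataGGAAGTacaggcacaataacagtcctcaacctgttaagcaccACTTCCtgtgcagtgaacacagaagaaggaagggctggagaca

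RefSeq lists 2 starts for Ms4a7, and the window uses the upstream one. In the GENCODE vM21 annotation Ms4a4c and Ms4a6b begin upstream of their windows, at positions 11404770 and 11516512. Of the 7 members, 6 matched the RefSeq promoter table; Ms4a6d had no entry. GGAAGT occurred on either strand in 5 of the 6 windows, once each in Ms4a7, Ms4a4c, Ms4a4b and Ms4a6c, 2 times in Ms4a6b, and not in Ms4a4a, against 19.8% of 32536 windows of the same length. The match began 15 bases before the RefSeq start used in both Ms4a7 and Ms4a4c. These letters were chosen after the sequences had been seen, so the count is a description. Before them GAGGAA had been searched on both strands, with 1 match each in Ms4a4c and Ms4a4b, none in the other 4, and matches in 23.4% of all windows. The interferon response element, searched on both strands as GAAA, any 2 bases and GAAA again, was in 0 of the 6 windows and in 3.0% of all. The Ms4a4b and Ms4a4c windows were 68.8% identical with a longest shared run of 20 bases, Ms4a6b and Ms4a6c were 45.8% identical with a shared run of 48 bases, and Ms4a7 and Ms4a4c were 44.9% identical with a run of 9 bases. The shared run of 48 bases includes a GGAAGT match of both windows. The GGAAGT matches of Ms4a4b and Ms4a4c also lie in closely alike stretches, so the matches are not independent between these relatives. The Ms4a6b window was closest to that of Ms4a4c, at 49.6%.

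In the coding sequences, Ms4a4b and Ms4a4c were 91.7% identical over their coding bases, Ms4a6b and Ms4a6d 80.1%, Ms4a6b and Ms4a6c 74.7%, and Ms4a7 and Ms4a4c 46.4%. Along the chromosome, RefSeq places Ms4a14, Ms4a7, Ms4a4a, Ms4a4c, Ms4a4b, Ms4a6c, Ms4a6b, Ms4a4d and Ms4a6d in this order. In GENCODE vM21 transcripts, 8.19% of the 50-base stretches of Ms4a4c also occurred in another gene, mostly Ms4a4b, and 0.31% of those of Ms4a7 did, so a small part of the reads of Ms4a4c and Ms4a4b may be split between them. Ms4a6c shared 53.1% of its exon bases with the overlapping gene model BE692007, which was itself counted at 41.99 to 86.87 counts per 1000000 counts of a library (CPM). The level of Ms4a6c is therefore uncertain.

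Library totals ran from 22986972 to 36575446 counts, and the CPM values use totals scaled with trimmed-mean (TMM) factors. Mrc1 followed the labels, with 3481 ± 365 CPM in wild-type (SD, n = 3), 2153 ± 153 in heterozygous (n = 3) and 489 ± 48.6 in homozygous libraries (n = 4). The 12 border macrophage markers, Mrc1 among them, summed to 16815 to 18578 CPM for wild type, 16362 to 19237 for heterozygous and 19407 to 19971 for homozygous mice. None of them was at 0 in any library. For homozygous against wild type 11 of the 12 fitted values were above 0, where 48.9% of all tested genes were below 0. Microglia markers were present too, and their sum was 8130 to 15013 CPM for wild type, 8978 to 11747 for heterozygous and 6736 to 8843 for homozygous mice. Neutrophil markers summed to at most 1.38 CPM and mast cell markers to at most 5.42 CPM. Summed dendritic cell markers ran from 572 to 732 CPM in wild-type, 767 to 909 in heterozygous and 793 to 1035 in homozygous libraries. Itgax was at 0 in all libraries. B cell markers summed to 503 to 760, 367 to 492 and 272 to 439 CPM in the same order. Markers of brain cells other than leukocytes summed to 192 to 476, 75.0 to 205 and 75.9 to 131 CPM.

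No member of the family passed the test for a difference between genotypes. Ms4a7, Ms4a6b, Ms4a6c, Ms4a6d and Ms4a4a were abundant and differed by at most 1.47-fold between libraries of the same genotype, whereas Ms4a4c and Ms4a4b were low. Ms4a4b spread 3.80- to 5.92-fold between libraries of the same genotype, and Ms4a4c spread 3.96-fold in wild-type and 4.59-fold in homozygous but 1.46-fold in heterozygous libraries. edgeR's quasi-likelihood test called 0 of 7 members at an adjusted p under 0.05 for homozygous against wild type, where 0.0642% of all tested genes were called (9 genes). It called 0 of 7 for heterozygous against wild type, where 0% of all genes were called, with 816 genes at an unadjusted p under 0.05 and 0 calls by limma-voom but 197 by DESeq2. It called 0 of 7 for homozygous against heterozygous, where 0.0214% were called (3 genes). None of the 7 had an unadjusted p under 0.05 in any of the 3 comparisons, against 7.52%, 5.82% and 4.86% of all tested genes. The members' median log2 fold change was -0.03, 0.01 and -0.08 in these comparisons, and the median of all tested genes was 0.02, 0.01 and 0.01. The comparisons share libraries and are not independent of each other. In bulk samples, fewer cells of a type and less RNA per cell cannot be told apart.

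**Figure D1:**
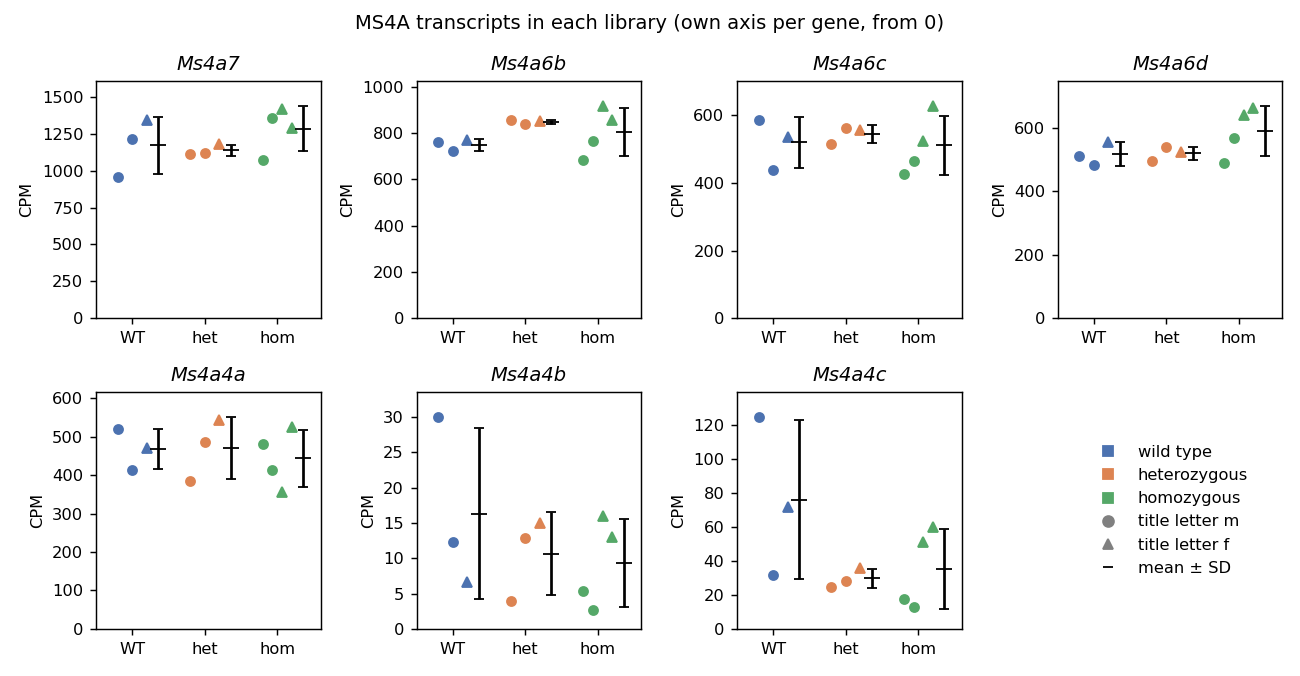
CPM of each member in every library (points; circles, title letter m; triangles, title letter f) with the mean and SD of each genotype beside them, each gene on its own axis from 0. Ms4a7 lay between 957 and 1421 CPM in all 10 libraries, while Ms4a4c ran from 13 to 125 CPM.

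Ms4a7 was measured at 957, 1218 and 1340 CPM in wild type, at 1114, 1120 and 1178 in the heterozygous and at 1073, 1356, 1421 and 1288 in the homozygous libraries. The genotypes overlapped, and the lowest and the third highest value both came from wild-type mice. The means were 1172 ± 196 (SD, n = 3), 1137 ± 35.5 (n = 3) and 1284 ± 151 CPM (n = 4). The log2 fold change was 0.13 for homozygous against wild type (SE 0.13, 95% interval -0.15 to 0.42), -0.04 for heterozygous against wild type (-0.34 to 0.26) and 0.18 for homozygous against heterozygous (-0.11 to 0.46). The intervals leave room for a 1.33-fold rise in homozygous over wild-type libraries, and adjusted p in edgeR's quasi-likelihood test was 1 in each of the 3 comparisons after rounding.

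Ms4a6b, the next by count, stood at 761, 720 and 768 CPM in wild-type, 855, 839 and 849 in heterozygous and 682, 764, 914 and 856 in homozygous libraries. Here all 3 heterozygous values lay above all 3 wild-type values, while the homozygous values spanned both. It was the only member of 7 whose CPM ranges did not overlap between heterozygous and wild type, in a table where 9.60% of all tested genes did not overlap and 5.43% did so on the higher side. The log2 fold change was 0.18 (SE 0.11, 95% interval -0.07 to 0.42) and did not pass edgeR's quasi-likelihood test (adjusted p = 0.876). No member's ranges were apart for homozygous against wild type or against heterozygous, where 7.97% and 7.47% of all genes were.

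The other 2 Ms4a6 genes did not pass the test either. Ms4a6d was at 511, 482 and 557 CPM in wild-type, 497, 539 and 524 in heterozygous and 491, 570, 640 and 662 in homozygous libraries. The upper 3 homozygous libraries exceeded every wild-type and heterozygous value, and the fourth was below most of them. Its log2 fold change for homozygous against wild type was 0.19 (95% interval -0.06 to 0.45), with an adjusted p of 0.813 in edgeR's quasi-likelihood test. Ms4a6c was at 587, 438 and 535 CPM in wild-type, 514, 561 and 557 in heterozygous and 428, 465, 524 and 626 in homozygous libraries, and the heterozygous values lay within the wild-type range and that within the homozygous range. Its log2 fold changes were -0.03, 0.07 and -0.09 in the 3 comparisons, with the overlapping gene model as a limit on what was counted.

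Ms4a4a, a surface protein gene of many tissue macrophages, was at 520, 415 and 470 CPM in wild-type, 385.2, 486 and 543 in heterozygous and 482, 414, 357 and 526 in homozygous libraries. High and low values occurred in each genotype. The log2 fold changes were -0.07, 0.01 and -0.08, and the widest 95% interval, for heterozygous against wild type, ran from -0.37 to 0.39.

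Ms4a4c was measured at 125, 31.5 and 71.7 CPM in wild type, at 24.7, 28.2 and 36.1 in the heterozygous and at 17.6, 13, 50.9 and 59.7 in the homozygous libraries. Wild-type replicate 1 was far above every other library, homozygous replicates 1 and 2 were the lowest, and the genotypes overlapped. The means were 75.9 ± 46.7 (SD, n = 3), 29.7 ± 5.81 (n = 3) and 35.3 ± 23.5 CPM (n = 4). The log2 fold change was -1.10 for homozygous against wild type (SE 0.57, 95% interval -2.38 to 0.17) and -1.35 for heterozygous against wild type (SE 0.63, -2.75 to 0.04). Neither passed edgeR's quasi-likelihood test, with adjusted p of 0.715 and 0.791. Without wild-type replicate 1 the 2 values were -0.54 and -0.80. For homozygous against heterozygous the log2 fold change was 0.25 (SE 0.58, -1.04 to 1.54).

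Ms4a4b was the scarcest member, at 30.0, 12.4 and 6.63 CPM in wild-type, 3.96, 12.8 and 15 in heterozygous and 5.41, 2.7, 16.0 and 13 in homozygous libraries. The genotypes overlapped widely, and wild-type replicate 1 was again the highest. The log2 fold change for homozygous against wild type was -0.81 (SE 0.77, 95% interval -2.53 to 0.90) and became -0.03 without wild-type replicate 1. The 13 T and NK cell markers summed to 95.3, 0.979 and 71.6 CPM in the wild-type libraries, 41.6 to 53.2 in the heterozygous and 18.0 to 26.1 in the homozygous. Wild-type replicate 1 was highest for these markers too, whereas wild-type replicate 2 had almost none of them and still 12.4 CPM of Ms4a4b. The most abundant of these markers were Trac, Cd3g, Lck and Cd3e, at 6.35, 5.89, 5.82 and 4.98 CPM over all libraries. The part of T cell transcripts in the Ms4a4b level was not tested.

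**Figure D2:**
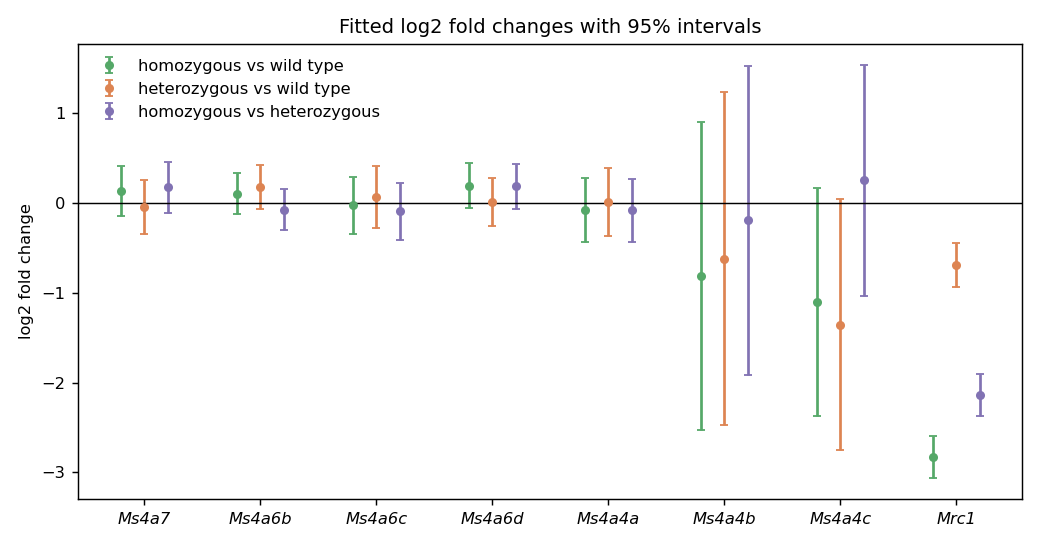
Fitted log2 fold changes with 95% intervals for the 7 members and for Mrc1 in the 3 comparisons. All 21 intervals of the members include 0, and those of Ms4a4b and Ms4a4c are several times wider than those of the other 5.

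Levels can be compared between genes only per length. Divided by the bases of their coding transcript models in GENCODE vM21, the members fell in the order Ms4a7, Ms4a4a, Ms4a6d, Ms4a6b, Ms4a6c, Ms4a4c and Ms4a4b, with means over 10 libraries of 704, 550, 356, 299, 284, 26.6 and 2.48 CPM per 1000 bases. In the wild-type libraries Ms4a7 (558 to 782) and Ms4a4a (496 to 622) overlapped, and so did Ms4a6b (269 to 287) and Ms4a6c (238 to 319). Ms4a6d (314 to 363) overlapped Ms4a6c alone among its neighbours, and Ms4a4c (18.3 to 72.3) and Ms4a4b (1.40 to 6.31) stood apart from the rest and from each other. No source used here names the annotation behind the counts, so the order depends on the transcript models chosen. This holds for the first place of Ms4a7 as well as for close neighbours. Over all annotated exons Ms4a7 has 4453 bases against 1714 in the models used, and Ms4a4a has 836 in both. On the longer length Ms4a7 would stand below Ms4a4a.

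**Figure D3:**
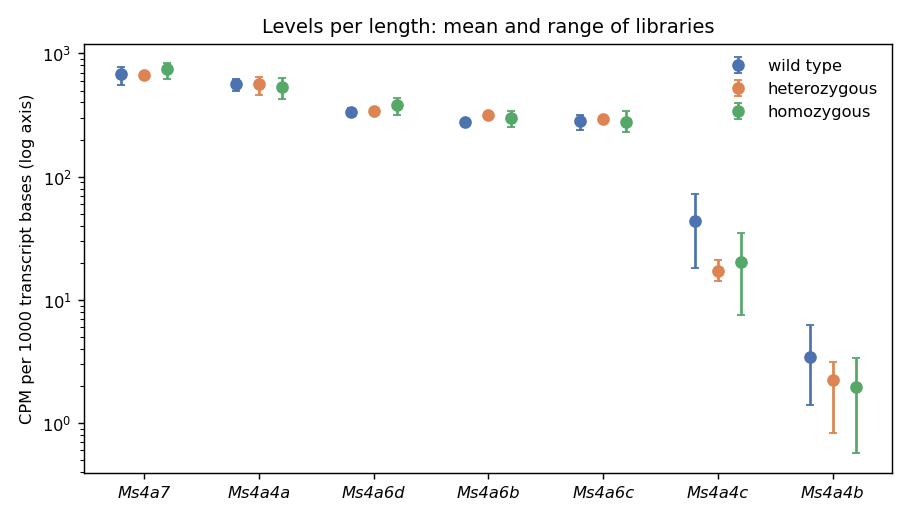
Mean and range over libraries of each member in CPM per 1000 transcript bases, by genotype, on a log axis. The 5 macrophage members lie between 232 and 829, Ms4a4c between 7.54 and 72.3 and Ms4a4b between 0.568 and 6.31.

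Within each library the counts of Ms4a7 were set against those of Ms4a4c, a ratio in which library scaling cancels. The ratio was 7.68, 38.7 and 18.7 in the wild-type libraries, 45.0, 39.6 and 32.6 in the heterozygous and 60.9, 104, 27.9 and 21.6 in the homozygous. Ms4a7 exceeded Ms4a4c in all 10 libraries, the lowest ratio was that of wild-type replicate 1, and the genotypes overlapped. On the log2 scale the means were 4.15 ± 1.17 (SD, n = 3), 5.28 ± 0.23 (n = 3) and 5.47 ± 1.04 (n = 4). The difference was 1.32 for homozygous against wild type (two-sided exact permutation p = 0.229), 1.13 for heterozygous against wild type (exact p = 0.2) and 0.19 for homozygous against heterozygous (exact p = 0.8). Adjusted over the 3 comparisons, the exact permutation p-values were 0.343, 0.343 and 0.8. With these numbers of mice the test, which doubles the smaller tail, cannot go below 0.0571 for 4 against 3 or 0.1 for 3 against 3, so no difference in the ratio could have passed 0.05. Without wild-type replicate 1 the first 2 differences fell to 0.72 and 0.53.

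The letters m and f in the sample titles, which matched sex-linked transcripts in 10 of 10 libraries, divided the homozygous ratios. Both f libraries (27.9 and 21.6) were below both m libraries (60.9 and 104). The difference in mean log2 ratio between homozygous and wild type was 2.21 among m libraries (2 against 2) and 0.39 among f libraries (2 against 1). Between homozygous and heterozygous it was 0.92 among m and -0.41 among f libraries. The ratio was not tested within each letter.

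**Figure D4:**
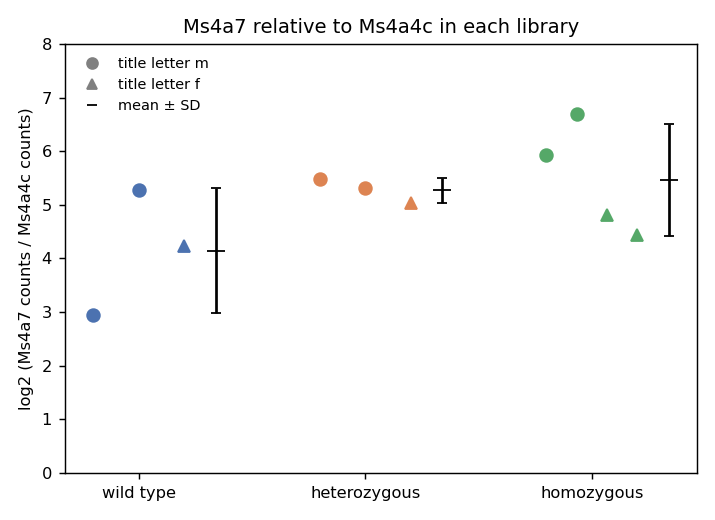
Log2 ratio of Ms4a7 to Ms4a4c counts in every library by genotype (circles, title letter m; triangles, title letter f) with the mean and SD. Wild-type replicate 1 is lowest at 2.94, and homozygous replicate 2 highest at 6.70.

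Ms4a4c was also set beside genes of monocytes and of the interferon response. Ccr2, the receptor that draws monocytes into tissue, was at 68.0, 161 and 160 CPM in wild-type, 57.9, 56.0 and 35.1 in heterozygous and 6.14, 5.72, 7.32 and 9.29 in homozygous libraries. The 3 genotypes did not overlap for Ccr2, unlike for Ms4a4c. Wild-type replicate 1 had the highest Ms4a4c and the lowest Ccr2 of its genotype, and homozygous replicates 3 and 4 had more Ms4a4c than any heterozygous library at a fraction of the Ccr2. The 11 monocyte markers reached a summed 104 to 208 CPM for wild type, 84.9 to 104 for heterozygous and 31.4 to 55.6 for homozygous mice. Ccr2 made up most of the wild-type sums, 6 of the 11 were tested, and 1, Ccr2, was called lower in homozygous than in wild-type libraries. Not all markers followed Ccr2. Itgal was at a mean of 17.6 CPM in wild-type, 31.8 in heterozygous and 33.6 in homozygous libraries, and Ly6c2 at 2.58, 6.60 and 1.04 CPM, neither of them called in any comparison. For heterozygous against wild type, 3 of the 6 fitted values were above 0 and 3 below. For homozygous against wild type 5 of the 6 were below 0 and 1 above, with a median log2 fold change of -1.59. For homozygous against heterozygous 4 were below and 2 above, with a median of -2.17. Of all tested genes, 48.9% and 49.1% were below 0 in these 2 comparisons. Chil3 and F10 were at 0 in all libraries, and Ly6c2, a defining marker of classical monocytes, was at 0 in 6 of 10. The part of monocyte transcripts in the Ms4a4c level was not tested.

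The 17 interferon response genes, whose products act against viruses, summed to 4052, 2486 and 2693 CPM in the wild-type libraries, to 1856 to 3276 in the heterozygous and to 1638 to 2665 in the homozygous. Wild-type replicate 1 was highest here as for Ms4a4c. The genotypes overlapped, and 0 of 17 were called in any comparison. For homozygous against wild type 16 of 17 fitted values were below 0, with a median log2 fold change of -0.57, where 48.9% of all tested genes were below 0. For heterozygous against wild type 14 of 17 were below 0 (median -0.42), and for homozygous against heterozygous 10 of 17 (median -0.18). In both of these comparisons 49.1% of all tested genes were below 0. The highest by level were Bst2, an antiviral tether, at 518 CPM over all libraries, Ifi27l2a at 338, Oasl2 at 241 and Rtp4 at 217. Whether the interferon response has a part in the Ms4a4c level was not tested.

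**Figure D5:**
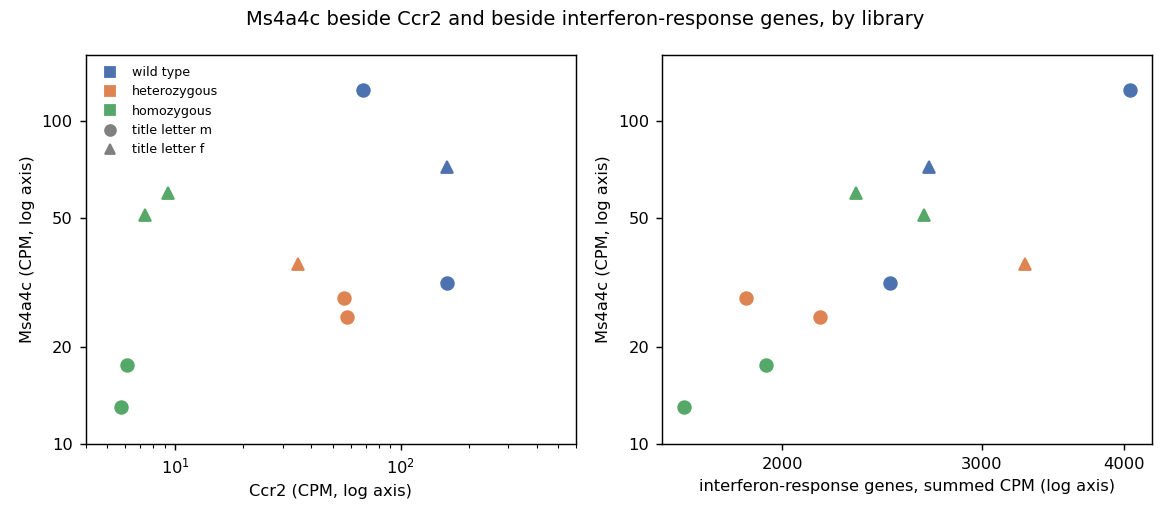
Ms4a4c in each library against Ccr2 (left) and against the summed CPM of 17 interferon response genes (right), all axes logarithmic. On the left the homozygous libraries lie at 5.72 to 9.29 CPM of Ccr2 and 13 to 59.7 CPM of Ms4a4c, and on the right the library with the highest sum, 4052 CPM, also has the most Ms4a4c.

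Likeness of pattern was measured as Pearson's r of log2 CPM over the 10 libraries, among 8132 genes of at least 10 CPM, as a description without a test. The libraries share genotypes and a single preparation batch. The genes most like Ms4a7 were Tex261 (r = 0.947), Hnrnpc (0.914), Amz2 (0.90), Cmtm6 (0.892) and Cyfip1 (0.891). Those most like Ms4a4c were Ezr (0.973), Hnrnpa1 (0.92), Bst2 (0.912), Hars (0.904) and Supt5 (0.901). Ms4a7 and Ms4a4c had r = -0.149 with each other, which already keeps any gene from standing in both lists. Within the family, Ms4a7 was nearest to Ms4a6d (r = 0.68), and Ms4a4c to Ms4a4b (0.763) and Ms4a6c (0.692), and with Ccr2 its r was 0.407. After the genotype means were removed, r of Ms4a4c was 0.903 with Ms4a6c, 0.746 with Ms4a4b, 0.737 with Ms4a6b and 0.705 with Ms4a6d. It was 0.336 with Ms4a4a, -0.0543 with Ms4a7 and -0.138 with Ccr2. Ms4a7 and Ccr2 had r = -0.286 over the 10 libraries and 0.569 after the removal.

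The rest of the family was low or at 0 in these cells. Of the 14 other MS4A genes, 9 had no count in any library, and the 7 members held 99.2% to 99.8% of all MS4A CPM. Ms4a7 alone held 27.4% to 37.8% of the members' CPM and Ms4a4c 0.36% to 3.57%. Ms4a14, the neighbour of Ms4a7, was at 0 to 24.7 CPM, and its log2 fold change for homozygous against wild type, 1.44, had a 95% interval of -1.46 to 4.33. That value was 3.74 with limma-voom, 2.41 with the replicate number as a block, 0.86 without wild-type replicate 2 and 2.34 without wild-type replicate 3, and it was not called in any of these. Ms4a1, which encodes the B cell antigen CD20, was at 0 in 6 of 10 libraries and at most 12.3 CPM. Ms4a8a, Ms4a4d and Ms4a12 reached 1.84, 2.42 and 0.0363 CPM.

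Tmem176a and Tmem176b encode membrane proteins of related build. Tmem176a was at 827, 902 and 807 CPM in wild-type, 767, 755 and 750 in heterozygous and 555, 555, 705 and 587 in homozygous libraries. Every homozygous value was below every heterozygous and wild-type value, and every heterozygous value below every wild-type value. For homozygous against wild type, heterozygous against wild type and homozygous against heterozygous, 7.97%, 9.60% and 7.47% of all tested genes did not overlap. The Tmem176a log2 fold change for homozygous against wild type was -0.49 (SE 0.10). It did not pass edgeR's quasi-likelihood test over all genes (adjusted p = 0.218) and passed DESeq2's (adjusted p = 9.87e-05). Tmem176b ran from 1545 to 1868 CPM in homozygous and from 1782 to 2052 in wild-type libraries, with a log2 fold change of -0.16 (95% interval -0.36 to 0.04).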

How the data were processed

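The authors deposited whole-number read counts per gene symbol for 10 libraries, and the submitters' processing notes name featureCounts 2.0.2, STAR 2.7.8a and bcl2fastq 2.20. For the counting, build, annotation and strand setting were not given in the sources. Libraries came from a SMARTer low-input kit that does not mark strand, in 1 batch, per the labels' protocols. Library totals ran from 22986972 to 36575446 counts.

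Genes were filtered by genotype with edgeR's filterByExpr (at least 10 counts, total of at least 15), leaving 14023 genes with 99.9% of counts, and scaled with TMM factors. Genotypes were compared by edgeR's quasi-likelihood test (version 4.0.16, R 4.3.3) on the deposited counts of all 10 libraries, with genotype as the only term, robust estimation, Benjamini-Hochberg adjustment over all genes and calls at an adjusted p under 0.05. Replicates were individual mice. The Ms4a7 to Ms4a4c ratio used a pseudocount of 0.5 and an exact permutation test over libraries (scipy 1.17.1), with p as 2 times the smaller tail. A second form of this p, from the absolute difference in means, was computed after the first had been seen and is given only as an alternative. The motif letters were also chosen after the sequences were seen, and both sets tried are reported.

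Gene lengths and sequence stretches came from GENCODE vM21, promoter windows and gene order from RefSeq on GRCm38.p6. The members and lists were chosen with earlier results of these data known. Named genes were the members, the other MS4A and Tmem176 genes, Mrc1, abundant members of each marker list, and the 5 genes of most like pattern to Ms4a7 and to Ms4a4c. The abundant members were named for the monocyte, T and NK cell and interferon lists only; other list genes were named after their values were seen. The value of 1 gene that this rule includes is not reported here.

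Alternatives were DESeq2's size factors, no filter, a filter at a mean count of 10 with 3 libraries at 1 CPM or more, DESeq2 1.42.0, limma-voom (limma 3.58.1), the title letter as covariate, the replicate number as a block, only the 2 genotypes compared, each library left out, and for the ratio pseudocounts of 5 and 0 and differences within title letter. A title letter by genotype interaction was added after seeing the data. On simulated counts with 200 changed genes, edgeR recovered 59% of 4-fold and 25% of 2-fold changes for homozygous against wild type among 13159 genes, with 0 false calls. The shares were 55% and 17% for heterozygous against wild type (13132 genes, 2 false calls) and 77% and 22% for homozygous against heterozygous (13131 genes, 3 false calls). The changed genes were drawn from those above 20 CPM.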

Additional observations from a re-analysis of the deposited data

How the results depend on the processing

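No alternative changed a call for any member: of 378 alternative values of the 21 member fold changes, 348 kept their direction and 30 changed sign, in 11 of the 21, with sizes up to 0.16 on the log2 scale. For heterozygous against wild type, DESeq2's size factors gave -0.011 for Ms4a6d and -0.0093 for Ms4a4a, DESeq2 gave -0.011 and -0.0093, limma-voom gave -0.010 for Ms4a4a, and the title letter gave 0.00015 for Tmem176b. The title letter gave -0.11 for Ms4a4c between homozygous and heterozygous. The unadjusted p of Ms4a4c was under 0.05 in 5 of 18 alternatives for homozygous and in 6 of 18 for heterozygous against wild type, with lowest adjusted p of 0.522 and 0.469. That of Ms4a6d was under 0.05 in 1 of 18 alternatives for homozygous against wild type. It was also under 0.05 in 1 of 18 for homozygous against heterozygous. In both comparisons this was the fit without homozygous replicate 1.

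Genes called numbered 272, 197 and 109 with DESeq2 (homozygous against wild type, heterozygous against wild type, homozygous against heterozygous), 17 and 1 for the first and last with the title letter, and 2 and 1 with only the 2 genotypes compared. DESeq2 also called Mrc1 lower in heterozygous than in wild-type libraries (-0.71). The cause of these differences was not tested.

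Leaving out 1 library at a time gave 2 to 12, 0 and 1 to 2 called genes. It gave log2 ratio differences of 0.72 to 1.88, 0.53 to 1.69 and -0.22 to 0.54, the negative value without homozygous replicate 2. The fold changes whose sign it turned ranged, for homozygous against wild type, from -0.14 to 0.075 (Ms4a6c) and -0.17 to 0.021 (Ms4a4a). For heterozygous against wild type they ranged from -0.17 to 0.066 (Ms4a7), -0.051 to 0.16 (Ms4a6c), -0.045 to 0.067 (Ms4a6d), -0.11 to 0.13 (Ms4a4a), -0.99 to 0.16 (Ms4a4b) and -0.045 to 0.066 (Tmem176b). For homozygous against heterozygous they ranged from -0.13 to 0.00077 (Ms4a6b), -0.20 to 0.040 (Ms4a4a), -0.58 to 0.15 (Ms4a4b), -0.13 to 0.53 (Ms4a4c) and -0.25 to 0.64 (Ms4a14).

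Replicate numbers did not pair the samples: deviations of the 8 same-numbered pairs correlated at -0.0118 to 0.0347. With the number as a replicate block, 1, 0 and 1 genes were called, the ratio differences were 1.66, 1.29 and 0.41, and the block gave 0.033 for Ms4a7, -0.15 for Ms4a4a and 0.045 for Tmem176b (heterozygous against wild type) and -0.15 for Ms4a4c (homozygous against heterozygous). The ratio's p from the absolute difference in means, computed after the main p had been seen, was 0.2, 0.2 and 0.771 by exact permutation, where 0.0286 is the smallest that 4 against 3 allows.

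For homozygous against wild type, SEs of the fold changes (log2) had a median of 0.61 among all tested genes and 0.18 among the 1797 genes above 100 CPM, so changes in genes as low and variable as Ms4a4c and Ms4a4b were measured far less precisely than in Ms4a7.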

Other observations

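A title letter by genotype interaction, added after seeing the data, was called for 0 genes by edgeR's quasi-likelihood test in each of the 3 comparisons. Among the members the smallest unadjusted p was 0.0447, for Ms4a4b between homozygous and wild type, with log2 fold changes of -2.38 among m and 1.13 among f libraries (adjusted p = 0.812). For Ms4a4c the same comparison gave -2.35 among m and -0.37 among f libraries (adjusted p = 0.83). For Ms4a7 it gave 0.16 and 0.02.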
